A study of Mus musculus with 6 samples.

Results

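The 10 genes described here code for the coactivators YAP (Yap1) and TAZ (Wwtr1), the TEAD transcription factors Tead1, Tead2 and Tead3, and 5 targets of YAP and TEAD (Ccn1, Ccn2, Ankrd1, Amotl2 and Axl). They were chosen by name, with earlier results of these data known. The deposited table listed 53700 genes, of which 12510 had a mean of at least 1 TPM and were tested, and all 10 were among these. The cells were SL4, a mouse colorectal cancer (CRC) line that carries luciferase in both groups. Poly-A-selected mRNA was sequenced from 3 libraries of SL4 cells without SEMA6A overexpression (pLV-Control below) and from 3 libraries of cells made to overexpress SEMA6A stably through a lentivirus (pLV-SEMA6A), a membrane-bound semaphorin. No treatment or time point separated the groups. For the RNA-seq, the paper calls the controls pLV-Control in its results and SL4 in its methods. It does not state whether they carried an empty lentivirus, so an effect of transduction cannot be told apart from one of SEMA6A. The sources describe neither independently made pLV-SEMA6A lines nor separate cultures behind the replicate numbers, so an effect of SEMA6A cannot be told apart from a difference between cell lines, and the p-values measure the spread between these libraries, which may be technical.

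YAP and TAZ are the output of the Hippo pathway. When the MST kinases (Stk3 and Stk4) with their scaffold SAV1 activate the LATS kinases (Lats1 and Lats2) and their cofactor MOB1, LATS phosphorylates YAP and TAZ, which are then held in the cytoplasm or degraded. When LATS is inactive, YAP and TAZ enter the nucleus, bind TEAD factors on DNA and switch on genes for growth, matrix contact and feedback on the pathway. Phosphorylation and location in the cell are not read by RNA-seq, so the values below are levels of mRNA and give no measure of YAP activity itself. In the intestine this pathway is known for its part in regeneration and in colorectal tumours.

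Values are in TPM (transcripts scaled to a fixed total), which is also scaled by transcript length and allows levels to be compared between genes. Sequencing depth cannot be recovered from TPM, and the reads behind each value are unknown. Sema6a was listed at 0 throughout the controls and reached 98.7 to 118 TPM with the lentivirus. The library labelled pLV-SEMA6A replicate 2 listed the mitochondrial gene mt-Co3 at 0.33 TPM, against 140.6 to 450.1 TPM in the other libraries. The reason was not tested, and listed values at or near 0 are therefore read with caution. Without that library the number of the 10 genes called below was again 8. Of the 7 epithelial markers (Epcam, Krt8, Krt18, Krt19, Cdh1, Vil1 and Cdx2), all were under 1 TPM in every library, and Epcam and Cdx2 were listed at 0 throughout. With that caution, the table does not show, as RNA, the markers of the epithelium that CRC arises from. For protein, the paper reports more E-cadherin, the product of Cdh1, in pLV-SEMA6A than in control cells by immunofluorescence. The leukocyte markers Ptprc, Cd3e, Cd68 and Lyz2 summed to 0.73 to 2.01 TPM among the controls and 0.77 to 1.12 TPM among the pLV-SEMA6A libraries with Cd3e listed at 0, and the 3 endothelial markers to at most 0.15 TPM with Cdh5 listed at 0. The 5 fibroblast markers summed to 5.06 to 6.38 TPM and to 6.96 to 7.99 TPM, respectively, with no marker at 0 in all libraries. They did not move together, as Col1a1 was called higher in pLV-SEMA6A and Pdgfra lower. The part of any of these markers in the results was not tested.

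The mRNA of the TEAD factors and of most of the targets was lower in the pLV-SEMA6A group, while that of the coactivators differed little. In a bulk culture, fewer cells that express a gene and less RNA per cell cannot be told apart. Tead1, Tead2, Tead3, Ccn1, Ccn2, Amotl2 and Axl were downregulated, Ankrd1 was upregulated, and Yap1 and Wwtr1 did not pass the test. In all, 8 of the 10 genes had an adjusted p under 0.05 in limma with Benjamini-Hochberg adjustment over all genes tested, where the share over all genes was 47.6%. Of these, 7 were lower in pLV-SEMA6A (28.2% of all genes tested) and 1 was higher (19.5%). Adding a minimum absolute log2 fold change of 0.5 left 4 differentially expressed genes (DEGs; 15.9% of all genes tested), namely Tead2, Ccn1, Ccn2 and Amotl2, all of them lower (10.8%). The libraries of the groups did not overlap for 9 of the 10 genes, which held for 58.5% of all genes tested. The 10 genes had a median log2 fold change of −0.46, beside −0.06 over all genes tested. Centring each library on its own median raised every log2 fold change by 0.093, and then 9 of the 10 were called, 7 lower and 2 higher. Shares over all genes were taken for the TPM as deposited alone, so counts after centring stand without a share beside them. Fold changes are of log2(TPM + 1), where the added 1 shrinks changes at low levels.

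**Figure D1:**
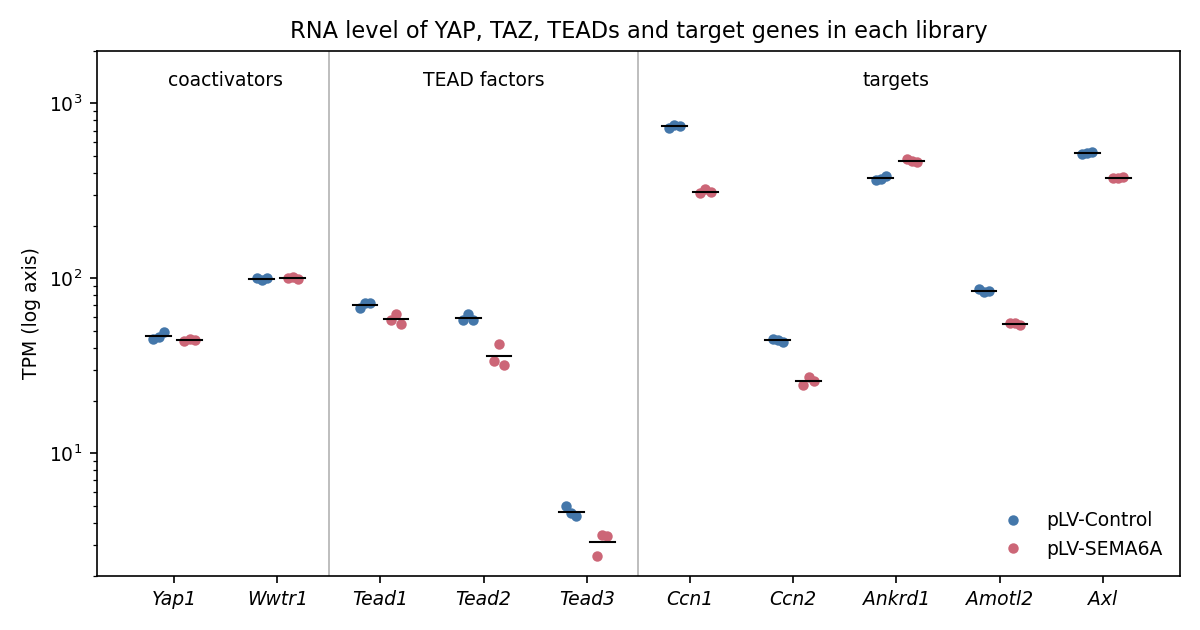
TPM (log axis) of each of the 10 genes in the 3 pLV-Control (blue) and 3 pLV-SEMA6A (red) libraries, 1 point a library, with a bar at the group mean, ordered as coactivators, TEAD factors and targets. The groups overlap for Wwtr1 alone, and Ankrd1 is the only gene whose pLV-SEMA6A points all lie above its pLV-Control points.

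Yap1 on chromosome 9 codes for YAP, which carries no DNA-binding domain of its own and acts through TEAD. It was listed at 45.2, 46.3 and 49.5 TPM across the pLV-Control group and at 43.6, 44.8 and 44.4 TPM with SEMA6A overexpressed. Every pLV-SEMA6A library thus lay below every pLV-Control library, by a margin smaller than the range of the controls. The means were 47.0 ± 2.23 TPM and 44.3 ± 0.588 TPM (SD, n = 3), a log2 fold change of −0.08 (SE 0.043, 95% interval −0.19 to 0.02) that did not pass the test (limma, adjusted p = 0.157, and 0.110 to 0.870 under the alternatives), with a sign that turned to 0.0096 once libraries were centred on their medians.

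Wwtr1 on chromosome 3 codes for TAZ, the paralogue of YAP that shares its TEAD partners, and its mRNA was the more abundant of the pair in every library. It was listed at 99.99, 97.3 and 99.99 TPM in control cells and at 101, 102 and 99.4 TPM in pLV-SEMA6A cells, so that the groups overlapped. The log2 fold change was 0.02 (SE 0.027, 95% interval −0.04 to 0.09; limma, adjusted p = 0.505). Centring each library on its median raised it to 0.12 and past the threshold (adjusted p = 0.0104 in limma, against 0.132 to 0.804 under the other alternatives). The summed level of Yap1 and Wwtr1 was 146 ± 3.06 TPM among the controls and 145 ± 1.53 TPM among the pLV-SEMA6A libraries (SD, n = 3), with p = 0.7 in a two-sided exact permutation test.

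The 3 TEAD genes were all downregulated in the pLV-SEMA6A group, Tead2 the most. TEAD factors bind DNA through their TEA domain and recruit YAP or TAZ, or repressors in their place. Tead2, on chromosome 7, was listed at 58.0, 62.6 and 57.9 TPM across the pLV-Control group and at 33.6, 41.9 and 31.96 TPM with SEMA6A overexpressed. The groups were far apart, and pLV-SEMA6A replicate 2 was the nearest to the controls. Its mean fell from 59.5 ± 2.69 to 35.8 ± 5.36 TPM (SD, n = 3), which left 60.2% of the control level (log2 fold change −0.73, SE 0.10, limma adjusted p = 0.00155). Leaving out 1 library at a time gave log2 fold changes from −0.84 to −0.65.

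Tead1, also on chromosome 7, was the most abundant TEAD gene in every library. It stood at 67.7, 71.98 and 72.1 TPM in control cells and at 57.9, 62.4 and 55.2 TPM in pLV-SEMA6A cells. The lowest control library lay above the highest pLV-SEMA6A library, and the mean fell from 70.6 ± 2.53 to 58.5 ± 3.65 TPM (SD, n = 3), with a log2 fold change of −0.27 (SE 0.054, limma adjusted p = 0.00694). Tead3 on chromosome 17 was the least abundant of the 10 genes. It was listed at 4.99, 4.55 and 4.40 TPM among the controls and at 2.59, 3.40 and 3.38 TPM among the pLV-SEMA6A libraries. The groups did not overlap, and the log2 fold change was −0.46 (SE 0.12, limma adjusted p = 0.0186, and 0.0129 to 0.0633 under the alternatives). Without pLV-Control replicate 1, which held the highest value, Tead3 no longer passed (log2 fold change −0.42, limma adjusted p = 0.0611).

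Tead4, the remaining TEAD gene, was read in the same list as the partners of TEAD. It stood at 11.7, 12.5 and 13.4 TPM across the pLV-Control group and at 9.85, 10.9 and 10.6 TPM with SEMA6A overexpressed. The groups did not overlap, and its log2 fold change of −0.24 passed the test (limma adjusted p = 0.0306), but in 4 of the 6 fits that left out a library it did not. Over the 4 TEAD genes, the summed level was 142, 152 and 148 TPM among the controls and 104, 119 and 101 TPM among the pLV-SEMA6A libraries. The sum fell outside the control range in each pLV-SEMA6A library, from 147 ± 4.60 to 108 ± 9.38 TPM on average (SD, n = 3), with p = 0.1 by exact permutation, which is the lower limit for groups of 3. Over the 16 sums, shares and ratios compared, the same value became 0.114 after Benjamini-Hochberg adjustment, which applies to every exact p of 0.1 given here. Tead1 made up 47.9% ± 0.744 of the sum in pLV-Control and 54.3% ± 1.58 in pLV-SEMA6A, while Tead2 made up 40.4% ± 1.11 and 33.1% ± 2.004 (SD, n = 3, exact permutation p = 0.1 for each). The ratio of coactivator mRNA to TEAD mRNA was 0.993 ± 0.0397 in pLV-Control and 1.35 ± 0.0988 in pLV-SEMA6A (SD, n = 3, exact permutation p = 0.1), with no overlap between the groups.

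**Figure D2:**
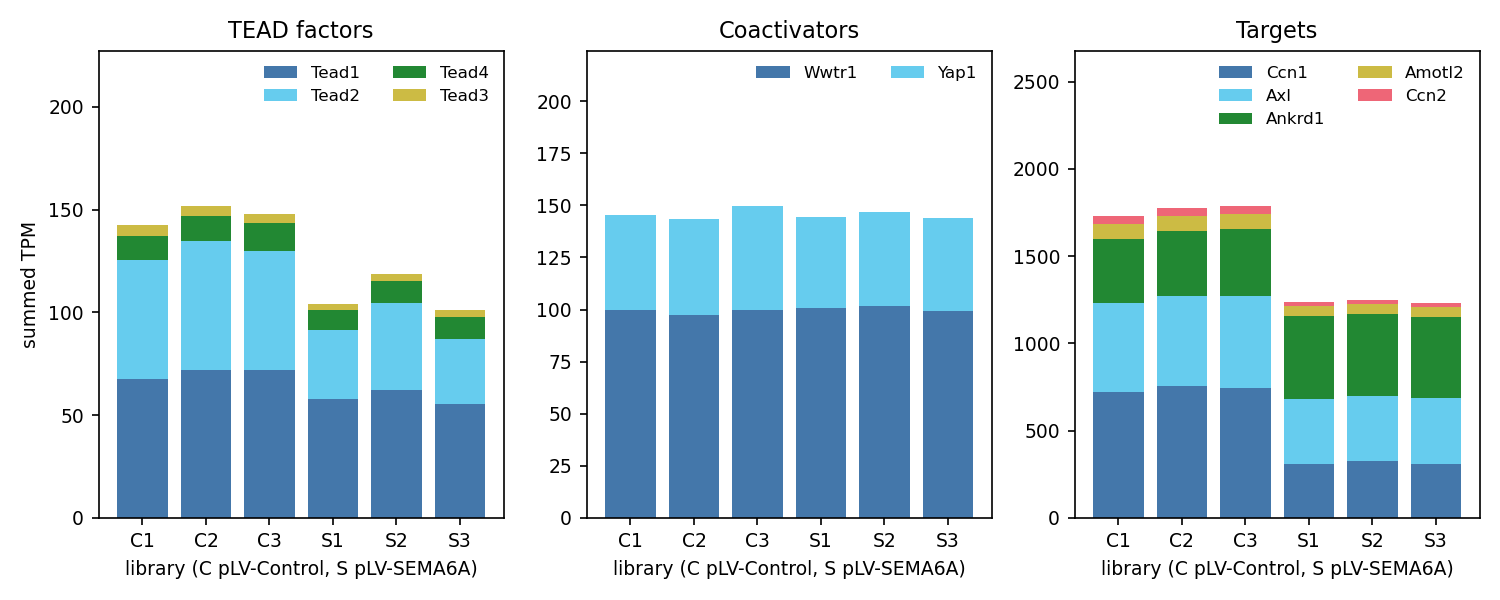
Summed TPM in each library (C1 to C3, pLV-Control; S1 to S3, pLV-SEMA6A) of the TEAD genes, the coactivator genes and the 5 targets, stacked by gene on separate linear axes that start at 0. The TEAD and target stacks are shorter in every pLV-SEMA6A library, the coactivator stacks are of like height, and the Ankrd1 segment grows while the Ccn1 segment shrinks.

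The targets are shown with the DNA just before their start sites, since TEAD factors bind a short motif, GGAATG, that can lie in promoters. The windows hold the 250 bases upstream of the RefSeq start on GRCm38.p6, read 5′ to 3′ on the strand of the gene, and capitals mark GGAATG or its reverse complement. They are at chr3:145649986-145650235 (minus strand) for Ccn1, chr7:25788734-25788983 (minus strand) for Axl, chr9:102717554-102717803 (plus strand) for Amotl2 and chr19:36119845-36120094 (minus strand) for Ankrd1. Ccn2 and Tead1 had no entry in the table used.
Ccn1: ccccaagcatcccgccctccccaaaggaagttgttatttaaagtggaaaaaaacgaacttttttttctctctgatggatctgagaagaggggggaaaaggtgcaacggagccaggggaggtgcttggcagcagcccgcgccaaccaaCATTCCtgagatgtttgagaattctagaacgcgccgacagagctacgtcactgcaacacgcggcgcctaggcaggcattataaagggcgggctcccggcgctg
Axl: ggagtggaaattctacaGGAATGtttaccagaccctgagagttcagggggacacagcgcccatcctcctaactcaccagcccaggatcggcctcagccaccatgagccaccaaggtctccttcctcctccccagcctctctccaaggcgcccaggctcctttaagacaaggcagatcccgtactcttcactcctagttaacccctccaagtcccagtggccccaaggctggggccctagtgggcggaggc
Amotl2: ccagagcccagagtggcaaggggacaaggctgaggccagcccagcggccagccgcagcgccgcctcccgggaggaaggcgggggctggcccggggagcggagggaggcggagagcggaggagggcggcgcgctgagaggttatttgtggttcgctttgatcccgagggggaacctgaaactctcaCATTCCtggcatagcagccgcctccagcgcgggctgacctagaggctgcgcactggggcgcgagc
Ankrd1: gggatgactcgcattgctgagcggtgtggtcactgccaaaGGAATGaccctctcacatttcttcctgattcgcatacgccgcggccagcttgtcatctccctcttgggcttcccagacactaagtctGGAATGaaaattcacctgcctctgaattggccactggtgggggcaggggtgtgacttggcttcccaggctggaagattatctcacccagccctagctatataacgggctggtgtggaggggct

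Searched on both strands, GGAATG occurred in the windows of 4 of 4 targets and of 7 of the 8 genes with an entry, Tead2 being the exception. Of all RefSeq genes with such a window, 14.4% held it (3880 of 27025). A gene was counted if any of its windows held the motif. By window it was 9 of 11, where 12.6% of all windows held it. The targets were chosen as targets of YAP and TEAD, so their count is no test of enrichment. Counted back from the start, it lay at bases 103 to 98 for Ccn1, 233 to 228 for Axl and 65 to 60 for Amotl2. The Ankrd1 window held it at bases 210 to 205 and again at 123 to 118. Yap1 held it at bases 141 to 136. The AP-1 motif TGANTCA, the site of the FOS and JUN factors that often bind beside TEAD, was found in 0 of the 8, against 7.82% of all genes.

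Ccn1 and Ccn2, which code for secreted matrix proteins of the CCN family (CYR61 and CTGF) and are the most used readouts of YAP, were both downregulated in the pLV-SEMA6A group. Ccn1 on chromosome 3 was listed at 720.5, 755 and 742 TPM across the pLV-Control group and at 306, 324 and 311 TPM with SEMA6A overexpressed. The replicates lay close together and the groups far apart, and the mean fell from 739 ± 17.6 to 314 ± 9.05 TPM (SD, n = 3). This was the largest change among the 10 genes, with 42.4% of the control level left (log2 fold change −1.23, SE 0.030, 95% interval −1.31 to −1.16, limma adjusted p = 1.31e-06), and 269 of all genes tested had a lower log2 fold change. In rank of mean TPM among the genes tested, Ccn1 went from 195 to 444. It was also the only member left when the minimum absolute log2 fold change was set to 1.

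Ccn2 on chromosome 10 was expressed at a far lower level, at 45.3, 44.6 and 43.2 TPM in control cells and 24.7, 27.4 and 25.9 TPM in pLV-SEMA6A cells. The groups did not overlap, and 58.6% of the control level was left (log2 fold change −0.75, SE 0.049, limma adjusted p = 6.49e-05). Other genes shared 19.7% of the 31-base stretches in its transcripts, mainly Gm15270, which overlaps it on the opposite strand. Gm15270 itself was listed at 0.10 to 0.22 TPM among the controls and 1.10 to 1.82 TPM among the pLV-SEMA6A libraries, and whether the counting used strand is not given in the sources used here. In the other 9 genes, such shared stretches made up at most 3.07%. Ccn1 fell by more than Ccn2, as the ratio of their TPM was 15.9 to 17.2 in pLV-Control and 11.8 to 12.4 in pLV-SEMA6A libraries (exact permutation p = 0.1).

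Ankrd1 on chromosome 19, which codes for the ankyrin repeat protein CARP and responds to strain in muscle, moved the other way. It was listed at 364, 372 and 387 TPM in control cells and at 478, 467 and 463 TPM in pLV-SEMA6A cells. Every pLV-SEMA6A library lay above every control, and the mean rose from 374 ± 11.6 to 469 ± 7.73 TPM (SD, n = 3), a log2 fold change of 0.33 (SE 0.029, 95% interval 0.26 to 0.39, limma adjusted p = 0.000222). The gain was below the minimum of 0.5 for a DEG. The ratio of Ccn1 to Ankrd1 was 1.98, 2.03 and 1.92 in the pLV-Control libraries and 0.640, 0.693 and 0.672 in the pLV-SEMA6A libraries. Ccn1 was thus the more abundant target in each control library and Ankrd1 in each pLV-SEMA6A library (exact permutation p = 0.1).

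Amotl2 on chromosome 9 codes for an angiomotin that binds YAP and holds it at junctions, so that it is both a target of YAP and a brake on it. It stood at 87.2, 83.7 and 84.2 TPM across the pLV-Control group and at 55.9, 55.6 and 53.8 TPM with SEMA6A overexpressed. The spread within each group was small against the distance between them, and 64.8% of the control level was left (log2 fold change −0.62, SE 0.033, limma adjusted p = 3.23e-05). Axl on chromosome 7, a receptor tyrosine kinase for GAS6, was listed at 514, 518 and 529 TPM among the controls and at 375, 377 and 378 TPM among the pLV-SEMA6A libraries. The groups did not overlap, and its mean fell from 520.3 ± 7.76 to 377 ± 1.45 TPM (SD, n = 3), with a log2 fold change of −0.46 (SE 0.020, limma adjusted p = 1.28e-05) that was below the minimum for a DEG.

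**Figure D3:**
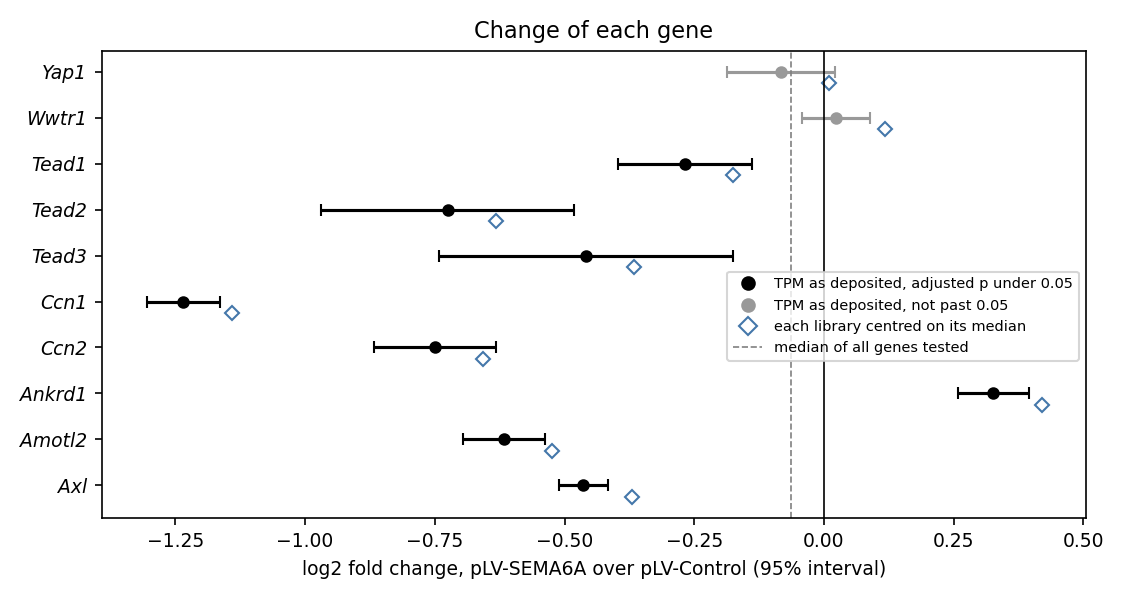
Log2 fold change (pLV-SEMA6A over pLV-Control, on log2(TPM + 1)) of each gene, with its 95% interval as a bar, black where the adjusted p was under 0.05 and grey elsewhere. Open diamonds give the value after each library was centred on its median, and the dashed line is the median of all genes tested (−0.06). Ccn1 lies furthest left at −1.23, Ankrd1 is the only black point right of 0, and the diamond of Wwtr1 stands at 0.12.

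The order of levels among the 10 genes differed between the groups. In pLV-Control, mean TPM ran from Ccn1 through Axl, Ankrd1, Wwtr1, Amotl2, Tead1, Tead2, Yap1 and Ccn2 to Tead3, and of these neighbours Yap1 and Ccn2 alone had libraries that overlapped. In pLV-SEMA6A it ran from Ankrd1 through Axl, Ccn1, Wwtr1, Tead1, Amotl2, Yap1, Tead2 and Ccn2 to Tead3, with overlap between Tead1 and Amotl2 alone. The 5 targets summed to 1763 ± 28.4 TPM in control cells and 1241 ± 9.10 TPM in pLV-SEMA6A cells (SD, n = 3, exact permutation p = 0.1). Within that sum, Ccn1 went from 41.9% ± 0.581 to 25.3% ± 0.601 and Ankrd1 from 21.2% ± 0.397 to 37.8% ± 0.645 (SD, n = 3), with no overlap between the groups. The share of Axl was much the same, at 29.5% ± 0.253 and 30.4% ± 0.282 (SD, n = 3), although its libraries did not overlap either.

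The kinase core upstream of YAP held calls in both directions, in numbers near the share over all genes. Of 14 genes, all tested, 4 were lower (28.2% of all genes tested) and 4 were higher (19.5%) at an adjusted p under 0.05 in limma, with a median log2 fold change of 0.06. After centring each library on its median, 3 were lower and 7 higher. Centring raised every log2 fold change by 0.093, and the median over all genes tested became 0.03. No share over all genes was taken after centring, so these counts are not read as a result about the list. Lats2, a kinase that phosphorylates YAP and is itself induced by it, was listed at 27.1, 25.4 and 31.2 TPM among the controls and at 16.5, 17.9 and 16.5 TPM among the pLV-SEMA6A libraries. It fell without overlap (log2 fold change −0.68, SE 0.082, limma adjusted p = 0.000863), as did the scaffold Wwc1 (KIBRA), from 6.65 ± 0.617 to 4.14 ± 0.335 TPM (SD, n = 3; log2 fold change −0.57, limma adjusted p = 0.0035). These 2 of 14 were the DEGs of the list (15.9% of all genes tested), both lower (10.8%). After centring, Wwc1 stood at −0.48 and was no DEG, while Stk3 stood at 0.52 and was one.

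The MST kinase genes went in opposite directions. Stk3 (MST2) was listed at 30.4, 29.6 and 29.1 TPM across the pLV-Control group and at 38.3, 44.2 and 38.5 TPM with SEMA6A overexpressed (log2 fold change 0.43, limma adjusted p = 0.00194). Stk4 (MST1) was listed at 17.8, 17.7 and 17.2 TPM and at 14.2, 15.2 and 12.95 TPM, respectively (log2 fold change −0.30, limma adjusted p = 0.0104). Neither gene's libraries overlapped between the groups. Among the others, Mob1b, which codes for a cofactor of LATS, had a log2 fold change of 0.32 (limma adjusted p = 0.00362) and the kinase Map4k4 of 0.21 (limma adjusted p = 0.00176). Nf2, which codes for the membrane scaffold Merlin, rose by a log2 fold change of 0.17 (limma adjusted p = 0.0227) and Lats1 fell by 0.13 (limma adjusted p = 0.0462). Leaving out 1 library at a time, Nf2 kept its call in 2 of 6 fits and Lats1 in 0 of 6. Sav1 did not pass, at 38.8 ± 1.65 and 42.3 ± 3.07 TPM (SD, n = 3; limma adjusted p = 0.164).

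Of 14 other upstream regulators, 12 were tested, and 5 were lower (28.2% of all genes tested) and 0 higher (19.5%) at an adjusted p under 0.05 in limma. Together, 5 of 12 is a smaller share than the 47.6% called over all genes. Ptpn14 was the only DEG among the 12, where the share over all genes tested was 15.9% (10.8% lower). It codes for a phosphatase that binds YAP and is a target of it. It stood at 19.5, 19.4 and 19.8 TPM in control cells and at 13.2, 13.8 and 12.5 TPM in pLV-SEMA6A cells, without overlap (log2 fold change −0.54, limma adjusted p = 0.000342). The others were Amot and Amotl1, the angiomotin paralogues of Amotl2, with Frmd6 and Csnk1e, at log2 fold changes from −0.23 to −0.16. After centring each library on its median, 1 of the 5 calls, that of Ptpn14, was left, and at a log2 fold change of −0.45 it was no DEG. The share over all genes was not taken at that setting. Fat4 and Dchs1, an atypical cadherin and its ligand, had a mean under 1 TPM and were not tested.

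The Vgll genes, which code for TEAD partners that compete with YAP, were read as well, in the same list as Tead4. Vgll4, which codes for a repressor that occupies TEAD in place of YAP, was listed at 22.1, 22.9 and 20.9 TPM among the controls and at 14.1, 13.96 and 16.1 TPM among the pLV-SEMA6A libraries. It fell without overlap, with a log2 fold change of −0.55 (limma adjusted p = 0.00114). Vgll3 did not pass (log2 fold change −0.03, limma adjusted p = 0.65). Vgll1 and Vgll2 were under the minimum level. Of the 3 genes of this list that were tested, Tead4, itself a TEAD factor, and Vgll4 were called, both lower (28.2% of all genes tested). After centring, for which no share was taken, 1 of them, Vgll4, was called, at a log2 fold change of −0.45.

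The remaining targets came from a signature of 22 YAP and TAZ targets shared by human cancers, of which the 5 targets above are members. Of its other 17 genes, 14 were tested, and 10 were lower (28.2% of all genes tested) and 1 was higher (19.5%) at an adjusted p under 0.05 in limma, with a median log2 fold change of −0.42 beside −0.06 over all genes. The 4 DEGs (15.9% of all genes tested) were Gadd45a, Tgfb2, Lats2 and Ptpn14, all lower (10.8%). The last pair stands in the lists above as well. Gadd45a, a gene of the response to DNA damage, had a level near that of Ccn1 in the controls and was listed at 682, 702 and 705 TPM across the pLV-Control group and at 405, 412 and 392 TPM with SEMA6A overexpressed. It fell far outside the spread of its replicates (log2 fold change −0.79, SE 0.026, limma adjusted p = 4.8e-06).

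Tgfb2, which codes for a TGF-β ligand, was listed at 3.53, 2.79 and 3.70 TPM across the pLV-Control group and at 1.74, 1.47 and 1.32 TPM with SEMA6A overexpressed, again without overlap (log2 fold change −0.79, SE 0.14, limma adjusted p = 0.0044). The other 6 called lower had log2 fold changes from −0.46 to −0.24: the coagulation receptor gene F3, the transcription factor gene Foxf2, Crim1, Myof, Arhgef17 and Asap1. Leaving out 1 library at a time, Arhgef17 kept its call in 4 of 6 fits and the other 5 in all. Dock5 was called higher (log2 fold change 0.24, limma adjusted p = 0.041) and kept that call in 1 of the 6 fits that left out a library. Nuak2, Rbms3 and Ccdc80 did not pass. Igfbp3 was listed at 0 in all 6 libraries, and Fjx1 and Nt5e had a mean under 1 TPM.

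The CCN family did not move as a whole. Beside the fall of Ccn1 and Ccn2, Ccn4 (WISP1) was listed at 30.1, 31.9 and 34.0 TPM in control cells and at 48.2, 49.3 and 48.5 TPM in pLV-SEMA6A cells, and Ccn3 (NOV) at 1.48, 1.34 and 1.05 TPM and at 2.64, 3.15 and 2.56 TPM, respectively. Both rose without overlap, with log2 fold changes of 0.59 and 0.73 (limma adjusted p = 0.000195 and 0.00632). These signs and calls held under each alternative scaling. Over all genes tested, the groups did not overlap for 58.5%, and 19.5% were called higher. Ccn3 lay near the minimum of 1 TPM in the controls and was not tested at a minimum of 5 TPM. Ccn5 and Ccn6 were under the minimum level.

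**Figure D4:**
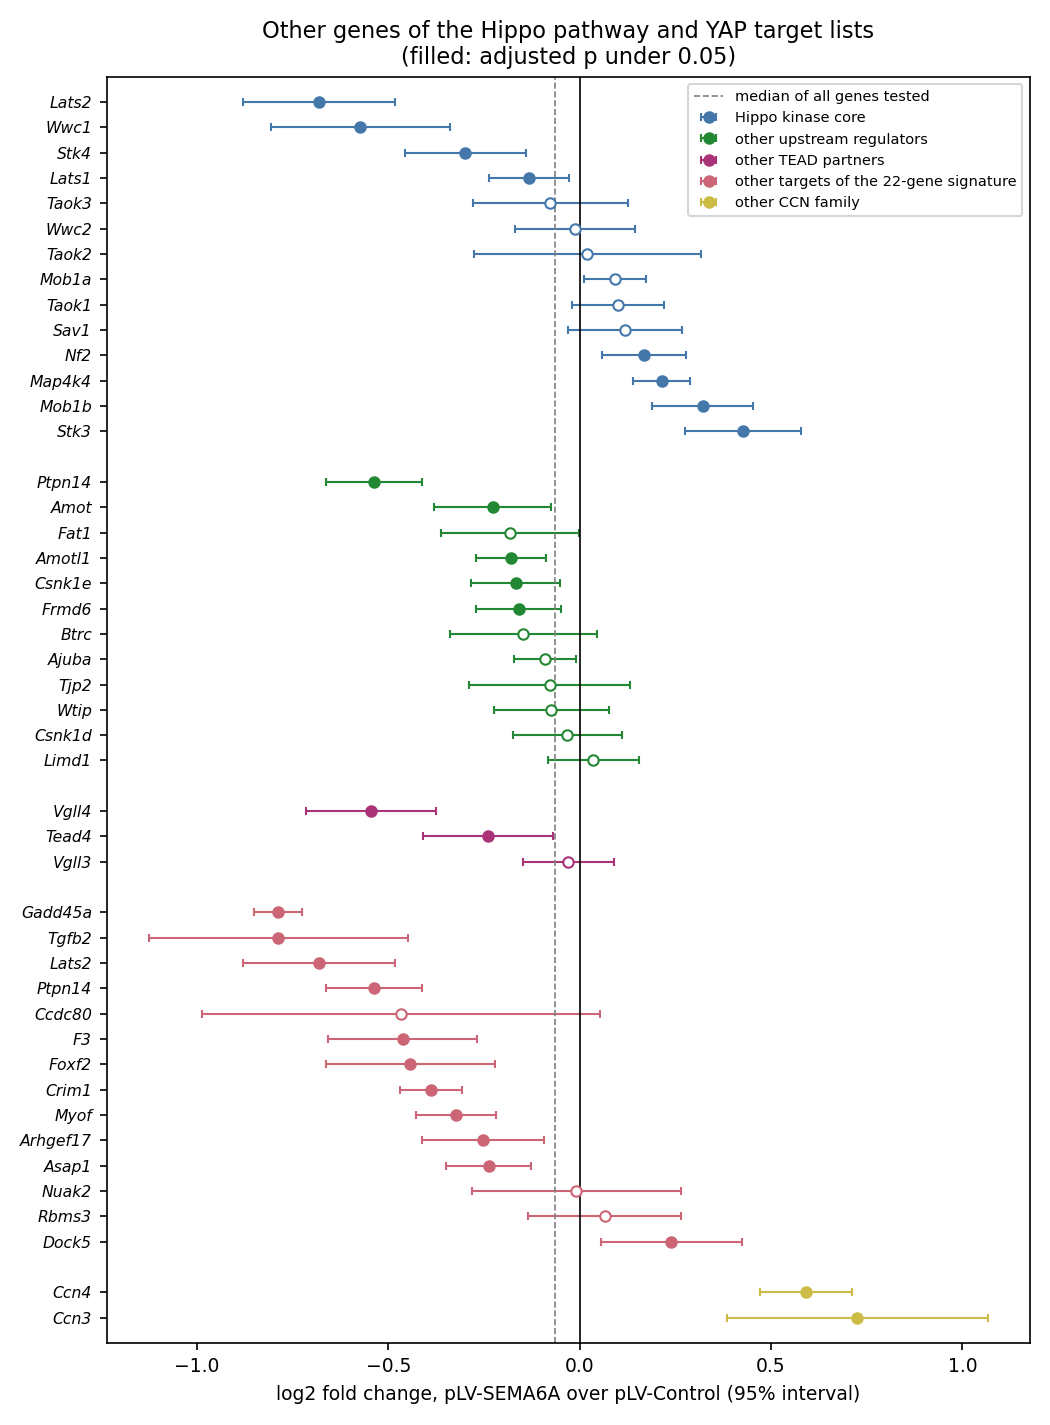
Log2 fold change (pLV-SEMA6A over pLV-Control, on log2(TPM + 1)) with its 95% interval for every tested gene of the 5 further lists, filled where the adjusted p was under 0.05 and coloured by list. Lats2 and Ptpn14 appear in 2 lists each, the kinase core spreads on both sides of 0, most signature targets lie left of the dashed median of all genes, and Ccn3 and Ccn4 lie at the right.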

How the data were processed

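The authors selected poly-A mRNA, sequenced it on an Illumina platform and deposited TPM for each library with 2 decimals, plus a mean for each group that was not used here. The submitters' processing notes name Bowtie2, HISAT, RSEM and the build mm39, without versions. The reference used here is GRCm38 (GENCODE M21, with 97% of the listed identifiers), so only chromosomes are given for genes, and RefSeq windows carry their own build.

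From the deposited TPM, limma 3.58.1 (R 4.3.3, trend option on, group alone in the model) was run on log2(TPM + 1) for 12510 genes whose mean reached 1 TPM. Its p-values were two-sided and adjusted by the Benjamini-Hochberg method. Sums, shares and ratios were compared by exact permutation tests. The steps were tested on simulated data. Count tests were not run, since TPM keeps no reads, and no interval for depth could be given. Shared sequence was counted as 31-base stretches of GENCODE M21 transcripts found in other genes, and the 50 bases after each RefSeq start were left out.

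The 10 genes and the lists were chosen with earlier results of these data known, and the gene lists were written by hand. Named were all 10 genes, the DEGs of each list, and Lats1, Lats2, Nf2, Stk3, Stk4, Sav1 and Tead4. For Yap1, Ccn1 and Ccn2, the 3 genes most like each were named. Other list genes, such as Mob1b, Map4k4, Amot and Dock5, were named after their values were seen. Alternatives were a pseudocount of 0.1, all genes above 0 in at least 1 library, a minimum of 5 TPM, centring, upper quartile scaling and no trend. Others were a minimum log2 fold change of 1, the replicate block and leaving out each library in turn. The result of 1 further gene is left out.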

Additional observations from a re-analysis of the deposited data

How the results depend on the processing

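Over 15 results, 195 alternative values were computed, of which 180 were kept, meaning for a log2 fold change the same sign and side of the threshold, and for a count of calls a value within 1.5 times that in the report. Of the 10 genes, 7 to 9 were called under every alternative, and with a minimum absolute log2 fold change of 1, only 1 gene (Ccn1) was left of 4. Shares over all genes were not taken for the alternatives. Centring each library on its median turned Yap1 to a log2 fold change of 0.0096 and took Wwtr1 to 0.12 and past the threshold. Tead3 lost its call at −0.46 when all genes above 0 in at least 1 library were tested, and with the replicate block. Its log2 fold change ran from −0.51 to −0.36 when 1 library was left out. At a minimum of 5 TPM it was not tested. The least stable count was that of the other upstream regulators, 5 in the report. It was 3 with all genes above 0 in at least 1 library, 1 with centring, 3 with upper quartile scaling and 2 with the replicate block. When 1 library was left out it was 2 to 4, with 4 without pLV-SEMA6A replicate 3 and 2 or 3 without any of the other 5. Apart from centring and scaling, which shift all values, the cause was not tested.

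No pairing of the libraries by replicate number was seen in these values, which cannot say whether the experiment paired them. After subtraction of the group means, libraries with the same number correlated at −0.08 to −0.02 and those of other numbers at 0.03. The latter value is no separate comparison, since that subtraction ties it to the former. With the replicate block, 7 of the 10 genes were called. With 3 libraries a group, no exact permutation test could go below p = 0.1. TPM gives no depth, which limits what can be said of low genes such as Tead3. A summed alternative over several identifiers was not run, since each of the 10 genes has 1.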

Other observations

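The genes whose levels over the 6 libraries were most like those of Yap1, Ccn1 and Ccn2 were sought among 8184 genes averaging 10 TPM or more, by the root mean square difference of log2(TPM + 1) centred on each gene's mean. With 3 libraries a group, this measure mostly ranks genes by the size of their change and their spread. For Ccn1 they were Irf9 (difference 0.0362), which codes for a factor of the interferon response, Ptgs2 (0.0457), which codes for the prostaglandin enzyme COX-2, and Tapbp (0.0475), which codes for the antigen loading protein tapasin. Their mean TPM fell from 55.1 ± 1.84 to 23.2 ± 1.15 for Irf9, from 160 ± 1.53 to 65.96 ± 1.54 for Ptgs2 and from 70.5 ± 3.62 to 28.5 ± 0.280 for Tapbp (SD, n = 3).

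For Ccn2 they were Nhlrc3 (0.0284), Plekhn1 (0.0331) and the splicing kinase gene Clk1 (0.0441). For Yap1 they were the nuclear pore gene Ranbp2 (0.0125), the acetyltransferase subunit gene Naa15 (0.0143) and the polarity gene Pard3 (0.0213), which stood at 40.9 ± 2.05 TPM among the controls and 38.8 ± 0.965 TPM among the pLV-SEMA6A libraries (SD, n = 3). Among the fibroblast markers, Col1a1, which codes for a collagen chain, was listed at 1.39, 1.23 and 1.19 TPM across the pLV-Control group and at 3.33, 3.80 and 3.68 TPM with SEMA6A overexpressed, a rise without overlap at a low level (log2 fold change 1.02, limma adjusted p = 0.000681). Pdgfra, a growth factor receptor gene, went the other way, from 1.76 ± 0.333 to 0.780 ± 0.145 TPM (SD, n = 3; log2 fold change −0.63, limma adjusted p = 0.0219), and kept its call in 3 of the 6 fits that left out a library. Dcn, which codes for decorin, did not pass (log2 fold change −0.08), and Col1a2 and Lum were not tested.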
